A study of Mus musculus with 22 samples.

Results

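The comparison set double transgenic mice (dTg), which carry the N40K and the 5xFAD transgenes together, against wild-type littermates (WT) in cortex at 6 months of age. Its members were taken from the genotype labels alone: 3 dTg and 3 WT libraries, 6 of the 12 libraries at that age and of 22 in the series, each with a score for 15705 genes. All of these mice came from matings of N40K-Tg +/- with FAD +/- animals. The N40K transgene makes the amino-terminal part of the Snrnp70 protein, and 5xFAD mice carry human transgenes with familial Alzheimer disease mutations under the Thy1 promoter and form amyloid deposits early in life. N40K and 5xFAD littermates (3 libraries each) were used here only to show what each set of transgenes did alone. The labels do not name the promoter of the N40K transgene or the sex of the mice. The labels do not say whether each library came from a separate animal, so p-values measure the spread between these libraries.

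The Snrnp70 protein belongs to U1 snRNP, the small nuclear RNA-protein particle that pairs with the 5′ splice site at the start of an intron and opens spliceosome assembly. Snrnp70 and other U1 proteins aggregate in the brain in Alzheimer disease, and the fragment is studied as a model of losing U1 function in neurons. The series asks, by its title, what a U1 splicing defect does in Alzheimer disease, and dTg mice put that defect and amyloid in the same cortex. The measured value was the Sd score, 1 ratio per gene and library, read here as splicing deficiency, higher where more of a gene's signal is unspliced. It is not an expression level: a higher score does not say that a gene made more or less RNA.

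In dTg cortex the scores of 221 genes were higher than in WT cortex, and those of 26 were lower. The rises included Loxl4, Nmnat1, Fgf17, Cdk8 and Faah, and at smaller absolute scores Vamp1, Snap25 and Slit3. The falls included genes of microglia and their lysosomes (Cd180, Cd68, Ctsz, Grn), the interferon-response gene Usp18 and the minor-spliceosome gene Snrnp48. These calls were unstable. Leaving out any 1 WT library or dTg replicate 2 cut the count from 247 to between 30 and 55. With each library centred on its median, 98 genes were higher and 65 lower. Cd180, Ctsz, Grn and Fgf17 passed in 0 of 6 fits with 1 dTg or WT library left out. Fold changes are ratios of (score + 0.002), which makes the folds of low scores smaller.

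Scores were low and printed to 3 decimals. The mean over the 12 libraries lay under 0.02 in 6065 genes (38.6%), where 1 step of 0.001 is a sizeable part of the value. Any 2 of the 6 libraries correlated across genes with r from 0.980 to 0.990, on the log2 scale (15 pairs). The read depth is not known, so no interval that needs it is given. Among the dTg libraries, replicate 2 had the highest median score, so counts of calls and the leading genes are also given without it.

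The general level of the score came first. The median score over all genes was 0.029, 0.029 and 0.03 in WT replicates 1 to 3 and 0.03, 0.035 and 0.033 in dTg replicates 1 to 3. Replicates 2 and 3 of dTg lay above every WT library, and dTg replicate 1 equalled the highest WT library. The group values were 0.0327 ± 0.00252 in dTg and 0.0293 ± 0.000577 in WT (SD, n = 3 each). The difference of 0.15 on the log2 scale (1.11-fold) had a two-sided exact permutation p of 0.2, where 3 against 3 cannot give less than 0.1. N40K libraries had medians of 0.036, 0.031 and 0.032, and 5xFAD libraries 0.031, 0.03 and 0.029. Gene by gene, the median change from WT to dTg was 0.1073 on the log2 scale, and 0.071 without dTg replicate 2. It was 0.0958 from WT to N40K and 0 from WT to 5xFAD, against the same 3 WT libraries. Because the choice to centre each library on its own median decides how many genes count as higher, both scales are reported.

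**Figure D1:**
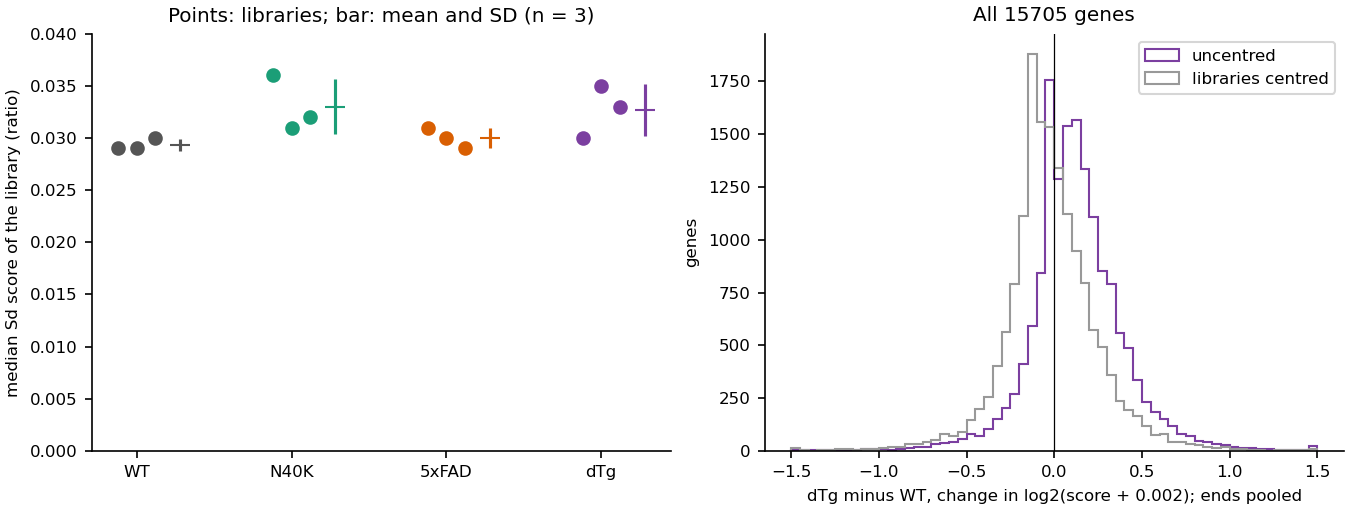
Left: the median Sd score of each 6-month library (points) with the mean and SD of the 3 libraries beside them; dTg replicate 2 (0.035) and N40K replicate 1 (0.036) stand highest and WT libraries lie at 0.029 to 0.03. Right: the number of genes at each change from WT to dTg on the log2 scale, as deposited (purple, median 0.1073) and after each library was centred on its median (grey, median −0.0361).

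In the uncentred scores 221 genes rose and 26 fell in dTg (247 of 15705 genes, 1.57%; 1.41% higher and 0.166% lower; limma, Benjamini-Hochberg adjusted p under 0.05). After centring 98 rose and 65 fell (163 genes, 1.04%; 0.624% higher and 0.414% lower), so the share of calls that were higher went from 89.5% to 60.1%. In 100 genes the call held on both scales, 79 of them higher and 21 lower. The rises had a median of 1.44-fold, 87 of them at least 1.5-fold and 19 at least 2-fold, and the falls a median of 0.702-fold. In all 247 the 3 dTg libraries lay outside the range of the 3 WT libraries. The same separation held for many genes that did not pass: all 3 dTg libraries lay above all 3 WT libraries in 2882 genes (18.4%) and below them in 543 (3.46%). After centring these were 1736 (11.1%) and 2313 (14.7%). Of the 247 genes, 34 carried predicted names only, 110 had a mean under 0.02 in both groups and 16 differed by no more than 1 step of the last decimal.

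The number of calls depended on single libraries. It was 30 without WT replicate 1, 31 without WT replicate 2, 55 without WT replicate 3 and 55 without dTg replicate 2, against 219 without dTg replicate 1 and 223 without dTg replicate 3. When the libraries with the highest medians, dTg replicate 2 and N40K replicate 1, were both left out, it was 252, of which 130 were among the 247. In 158 of the 221 rises dTg replicate 2 was the highest dTg library, a larger share than over all genes (7413 of 15705). Centred counts were lower still: 0 without dTg replicate 2 and without WT replicate 1 or 3, 3 without dTg replicate 1, 4 without WT replicate 2 and 157 without dTg replicate 3 (limma; at an unadjusted p under 0.05 the 3 empty cases had 1947, 2580 and 2526 genes).

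Among genes with a group mean of at least 0.02, 14 of the largest rises are described, from 1.84-fold to 3.48-fold. Loxl4 (ENSMUSG00000025185), a lysyl oxidase of the family that cross-links collagen and elastin, had scores of 0.242, 0.185 and 0.13 in WT and of 0.643, 0.719 and 0.544 in dTg replicates 1 to 3. Its lowest dTg library had more than double the score of its highest WT library. The means were 0.186 ± 0.056 and 0.635 ± 0.0878 (SD, n = 3 each, 3.48-fold, log2 change 1.80 ± 0.26 SE, limma adjusted p = 0.0248, and 0.0843 without dTg replicate 2). Nmnat1 (ENSMUSG00000028992), the nuclear enzyme that makes NAD, had 0.01, 0.009 and 0.006 in WT against 0.023, 0.047 and 0.026 in dTg, with dTg replicate 2 well above the other two (3.19-fold, adjusted p = 0.0406, and 0.109 without that library). Ccdc24, a coiled-coil gene that overlaps B4galt2 and Slc6a9 in the GENCODE M21 annotation, had 0.045, 0.022 and 0.024 against 0.065, 0.121 and 0.085 (2.9-fold, adjusted p = 0.0444, and 0.139 without dTg replicate 2). WT replicate 1 was the high one of its group there and the nearest to the dTg range. Fgf17, a secreted fibroblast growth factor, had 0.126, 0.081 and 0.124 against 0.242, 0.239 and 0.414 (2.63-fold, adjusted p = 0.0484, and 0.117 without dTg replicate 2), and here dTg replicate 3 was the highest.

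Cdk8 (ENSMUSG00000029635), the kinase of the Mediator complex, had 0.041, 0.05 and 0.048 in WT against 0.105, 0.094 and 0.079 in dTg (1.95-fold, log2 change 0.97 ± 0.12 SE, adjusted p = 0.0143, and 0.0437 without dTg replicate 2). No dTg library of Cdk8 came near the WT range, and dTg replicate 2 was not the highest. Faah, the hydrolase that breaks down the endocannabinoid anandamide, had 0.063, 0.06 and 0.063 against 0.098, 0.146 and 0.121 (1.91-fold, adjusted p = 0.0312). The WT libraries of Faah hardly varied and the dTg libraries spread, with replicate 2 on top (adjusted p = 0.0843 without it). Timp4, an inhibitor of matrix metalloproteinases that overlaps Syn2 on the opposite strand in M21, had 0.142, 0.141 and 0.139 against 0.239, 0.348 and 0.241 (1.92-fold, adjusted p = 0.0279, and 0.0236 without dTg replicate 2). It passed in 3 of 6 fits with 1 library left out (limma adjusted p = 0.107 without WT replicate 2). The other 7 were Phospho1, a phosphatase of bone mineralisation (2.47-fold), the hydroxylysine kinase gene Agphd1 (2.2-fold), Sspn, a member of the dystrophin complex (2.04-fold), Agpat9, an acyltransferase of triglyceride synthesis (2.03-fold), the lipase maturation factor Lmf1 (1.97-fold), Ubxn2b, a p97 cofactor (1.91-fold), and the phosphatase gene Ppm1b (1.84-fold), all at adjusted p from 0.0328 to 0.0462. In 10 of the 14, dTg replicate 2 was the highest dTg library.

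**Figure D2:**
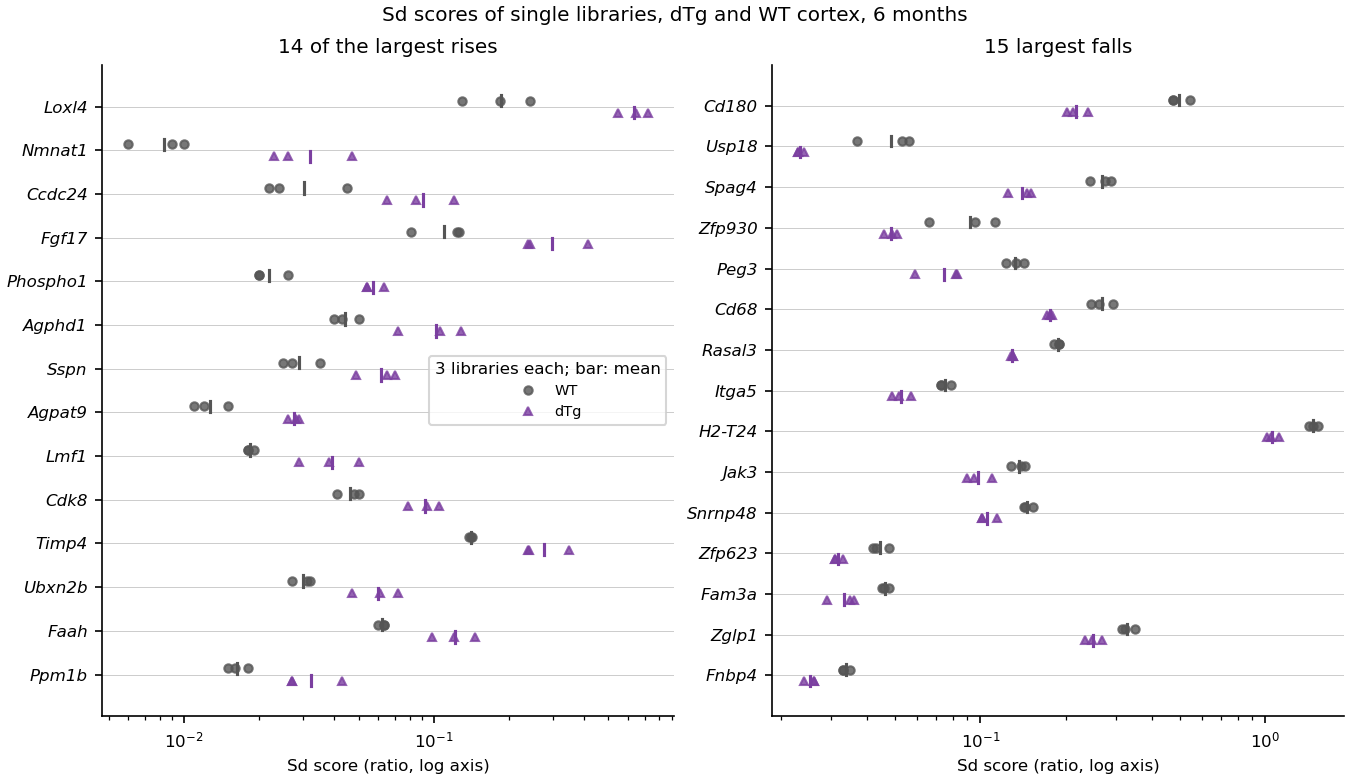
Sd scores (ratio, log axis) of single libraries for 14 of the largest rises (left) and the 15 largest falls (right): circles are the 3 WT and triangles the 3 dTg libraries, and vertical bars are group means. No gene's dTg and WT points overlap, as the choice of genes required; Loxl4 goes from 0.186 to 0.635 and Cd180 from 0.498 to 0.217.

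The 15 largest falls ran from 0.439-fold to 0.766-fold. Cd180 (ENSMUSG00000021624), a Toll-like receptor homologue of B cells and microglia, had 0.476, 0.542 and 0.475 in WT and 0.212, 0.238 and 0.202 in dTg. The 2 groups were far apart and each was tight. Cd180 overlaps Mast4 on the opposite strand in M21. The means were 0.498 ± 0.0384 and 0.217 ± 0.0186 (SD, n = 3 each, log2 change −1.19 ± 0.21 SE, adjusted p = 0.0363, and 0.1 without dTg replicate 2). Usp18, which removes the interferon-induced modifier ISG15 from proteins, had 0.056, 0.037 and 0.053 against 0.024, 0.023 and 0.023 (0.507-fold, adjusted p = 0.0279, and 0.0907 without dTg replicate 2). Its dTg libraries were almost equal, and WT replicate 2 was the nearest WT library. Cd68, a lysosomal membrane glycoprotein of macrophages and microglia, had 0.261, 0.293 and 0.245 against 0.179, 0.176 and 0.172 (0.664-fold, adjusted p = 0.0248). Rasal3, a Ras GTPase-activating protein of blood-lineage cells, had 0.189, 0.182 and 0.189 against 0.128, 0.13 and 0.13 (0.696-fold, adjusted p = 0.0363). Jak3, the kinase of cytokine receptors with the common gamma chain, fell to 0.722-fold (adjusted p = 0.0484) and Itga5, the fibronectin receptor subunit, to 0.709-fold (adjusted p = 0.0279).

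H2-T24 (ENSMUSG00000053835), a class I-like histocompatibility gene, had the smallest adjusted p of the 15 falls. Its scores were 1.467, 1.527 and 1.428 in WT and 1.116, 1.011 and 1.048 in dTg (0.718-fold, log2 change −0.48 ± 0.05 SE, adjusted p = 0.0033). The WT values lay above 1, as in 353 genes of the table. H2-T24 was the single gene of these 29 that passed without each of the 6 libraries in turn (adjusted p up to 0.0237). It belongs to a family of close copies, between which reads can be split, so its value is uncertain in that respect.

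Zinc-finger and splicing genes were also among the falls. Peg3 (ENSMUSG00000002265), an imprinted zinc-finger gene expressed from the paternal copy, had 0.123, 0.133 and 0.142 in WT against 0.082, 0.059 and 0.083 in dTg (0.564-fold, adjusted p = 0.0279, and 0.0202 without dTg replicate 2). All dTg values lay well below the WT range, with replicate 2 lowest. Peg3 passed in 3 of 6 fits with 1 library left out (limma adjusted p = 0.107 without WT replicate 2). Snrnp48 (ENSMUSG00000021431), a protein of the U11/U12 particle that recognises minor introns, had 0.142, 0.144 and 0.153 against 0.101, 0.101 and 0.114 (0.723-fold, adjusted p = 0.0212, and 0.0553 without dTg replicate 2). Spag4, a SUN-domain protein of the nuclear envelope, had 0.242, 0.287 and 0.274 against 0.146, 0.125 and 0.15 (0.528-fold, adjusted p = 0.0305, and 0.1 without dTg replicate 2). Zfp930 (0.553-fold), Zfp623 (0.727-fold), Fam3a (0.728-fold), the germ-cell zinc-finger gene Zglp1 (0.761-fold) and the formin-binding gene Fnbp4 (0.766-fold) completed the 15, at adjusted p from 0.0244 to 0.0462.

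Most of these 29 calls were lost when 1 library was left out. Of the 14 rises 2 passed without WT replicate 1, 1 without WT replicate 2, 1 without WT replicate 3 and 2 without dTg replicate 2, at adjusted p of up to 0.153, and 9 and 6 passed without dTg replicates 1 and 3. Of the 15 falls 1, 3 and 2 passed without WT replicates 1, 2 and 3, 2 without dTg replicate 2, and 8 and 10 without dTg replicates 1 and 3 (adjusted p up to 0.157). Every change kept its direction, at 0.6649 or more for the rises and −0.345 or less for the falls on the log2 scale. Cdk8 passed in 5 of 6 omissions and missed in the other, without WT replicate 1 (adjusted p = 0.0512). After centring 12 of 14 rises and 13 of 15 falls passed; Sspn (adjusted p = 0.0712), Agpat9 (0.0762), Zfp623 (0.056) and Fnbp4 (0.0518) did not. Centring also brought in Lrrc8c, a subunit of volume-regulated anion channels (0.007, 0.006 and 0.005 in WT against 0.018, 0.036 and 0.016 in dTg, adjusted p = 0.0392) and Entpd6, a nucleotide phosphatase (2.73-fold, 0.0407). On the lower side it brought in Trim30a, an interferon-induced gene (0.101, 0.092 and 0.127 against 0.041, 0.046 and 0.047, adjusted p = 0.0403), and Alox5, the 5-lipoxygenase of leukotriene synthesis (0.472-fold, 0.0392).

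The next question was how the dTg scores stood beside those of mice with 1 set of transgenes. These comparisons share libraries: N40K minus WT and 5xFAD minus WT use the same 3 WT libraries as dTg minus WT. N40K minus WT called 28 genes (0.178%) and 5xFAD minus WT 3 (0.0191%). The 3 of 5xFAD minus WT were Kcnab1, Atp2b2 and Cst3, each a difference of 1 step of the last decimal. The 28 included such 1-step differences (Rims2, Ddx6, Kcnab1 and Atp2b2) and larger ones, such as Peg3 and Hnrnpu. The direct tests called 49 genes for dTg minus 5xFAD (44 higher, 5 lower, 0.312%) and 3 for dTg minus N40K (0.0191%). The interaction, which asks whether the dTg change differs from the sum of the separate changes, also called 3 (0.0191%). After centring none of these 5 contrasts called a gene (0%, limma). At an unadjusted p under 0.05 the centred scores had 3019 genes for N40K and 738 for 5xFAD against WT. They had 2534 for dTg against 5xFAD, 927 for dTg against N40K and 588 for the interaction. Over the 221 genes that rose in dTg, the median change was 0.525 in dTg, 0.415 in N40K and 0.0968 in 5xFAD mice. Over the 26 that fell it was −0.511, −0.2528 and −0.2369. Both sets were chosen by their dTg change, which makes their dTg medians larger in size. These medians therefore cannot rank dTg against N40K and 5xFAD mice. Over all genes the medians were 0.1073, 0.0958 and 0, and 0.0015 for dTg minus N40K.

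One group of the named genes had dTg scores close to those of N40K mice. Peg3 had 0.061, 0.073 and 0.069 in N40K and 0.135, 0.13 and 0.125 in 5xFAD libraries, so dTg and N40K ranges overlapped and 5xFAD lay within the WT range (dTg minus 5xFAD adjusted p = 0.0459, dTg minus N40K unadjusted p = 0.344, limma). Ccdc24 had 0.135, 0.089 and 0.12 in N40K against 0.028, 0.023 and 0.029 in 5xFAD. Faah had 0.147, 0.108 and 0.121 against 0.06, 0.072 and 0.06. In both genes every N40K library exceeded every 5xFAD library. Neither Ccdc24 (adjusted p = 0.0616) nor Faah (0.0521) passed in dTg minus 5xFAD. Snrnp48 (0.113, 0.112 and 0.116 in N40K, 0.131, 0.148 and 0.136 in 5xFAD) and Fnbp4 (0.021, 0.023 and 0.023 against 0.033, 0.034 and 0.036) did pass, at adjusted p of 0.0478 and 0.0247. Fnbp4 was less close to N40K than the others. Its dTg libraries (0.026, 0.024 and 0.026) lay between the N40K and WT ranges (WT 0.035, 0.033 and 0.033). Its dTg minus N40K test had an unadjusted p of 0.0119 and an adjusted p of 0.845 (limma).

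Another group had dTg scores close to those of 5xFAD mice. Cd180 had 0.351, 0.174 and 0.236 in 5xFAD and 0.504, 0.459 and 0.551 in N40K libraries. Usp18 had 0.029, 0.021 and 0.023 in 5xFAD and 0.049, 0.051 and 0.045 in N40K. Cd68 had 0.212, 0.174 and 0.203 against 0.259, 0.277 and 0.259. In all 3 the N40K libraries lay at the WT level (1.01-fold, 1.01-fold and 0.997-fold) and the 5xFAD libraries overlapped the dTg range. Cd68 was less close, as only 5xFAD replicate 2 (0.174) lay in its dTg range and replicates 1 and 3 were higher. The dTg minus N40K differences had unadjusted p of 0.000249, 0.000102 and 5.54e-05, and none passed the adjustment (limma adjusted p = 0.334, 0.268 and 0.203). A difference between dTg and N40K mice was therefore not established for them.

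A few genes had dTg scores beyond both. Sspn had 0.025, 0.035 and 0.027 in WT, 0.026, 0.041 and 0.032 in N40K, 0.031, 0.029 and 0.03 in 5xFAD and 0.07, 0.065 and 0.049 in dTg mice. Only the dTg libraries were apart (interaction 0.80 on the log2 scale, unadjusted p = 0.012). Cdk8 stood at 0.0587 in N40K and 0.0477 in 5xFAD mice on average, against 0.0927 in dTg (interaction 0.60, unadjusted p = 0.00644; dTg minus 5xFAD adjusted p = 0.0247). Spag4 stood at 0.229 and 0.25 against 0.14 (interaction −0.58, unadjusted p = 0.0204). Zglp1 went the other way, with a log2 change of −0.39 in dTg and −0.41 in N40K mice (interaction 0.27, limma unadjusted p = 0.0218). Over all 15705 genes, 450 had an unadjusted interaction p under 0.05 in the uncentred scores (limma). H2-T24 had 1.294, 1.245 and 1.226 in N40K and 1.274, 1.21 and 1.216 in 5xFAD libraries, each group between the WT and dTg ranges (interaction 0.01, unadjusted p = 0.884). None of the 29 passed the adjusted interaction test (adjusted p = 1 for Sspn, Cdk8 and Spag4), so a departure from the sum of both changes was not established for them.

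**Figure D3:**
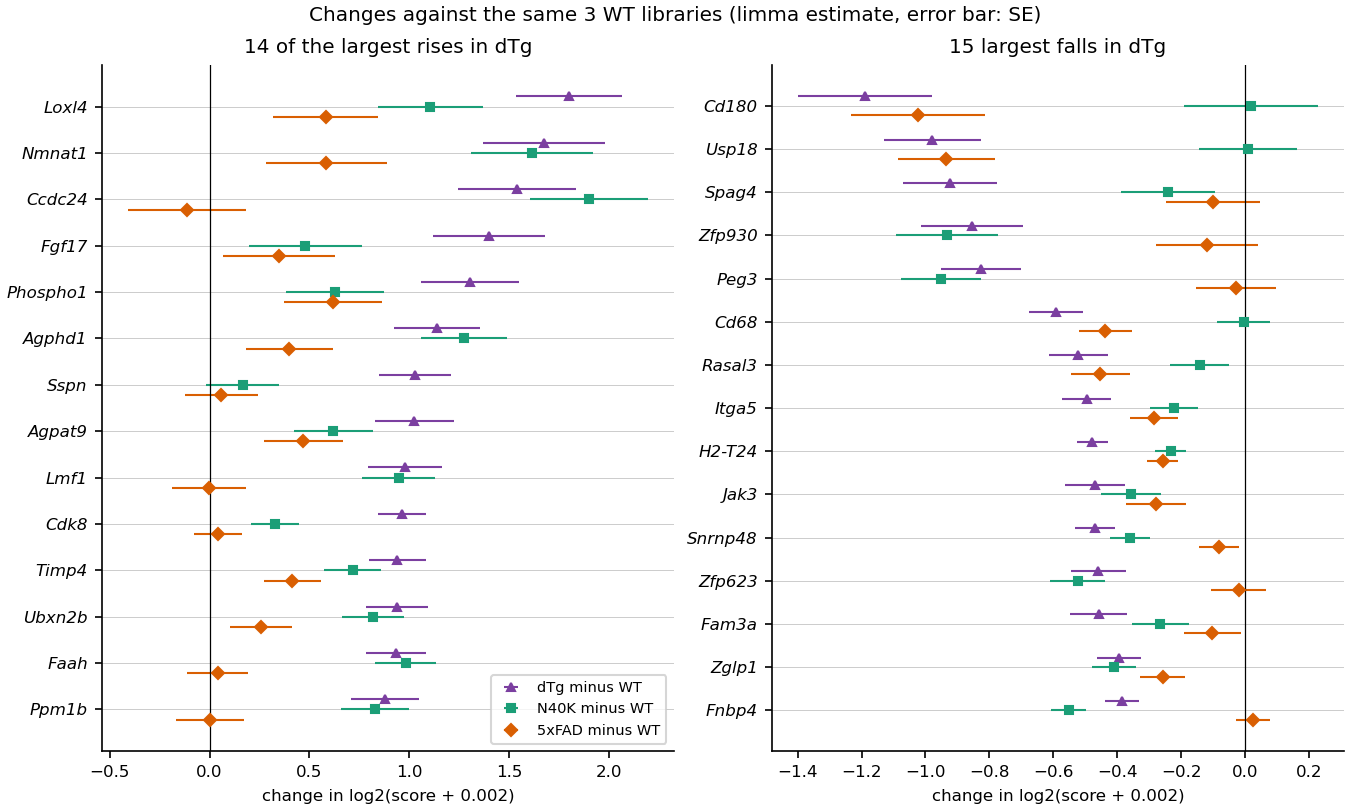
Changes against the same 3 WT libraries on the log2(score + 0.002) scale (limma estimate, bar: SE) in dTg (triangles), N40K (squares) and 5xFAD mice (diamonds), for 14 of the largest rises and the 15 largest falls in dTg. Peg3 and Zfp930 have dTg and N40K points together, and Cd180 and Usp18 have dTg and 5xFAD points together. The dTg point of Cd68 (−0.59) lies nearer to its 5xFAD point (−0.44) than to its N40K point (−0.004). In Sspn, Cdk8 and Spag4 the dTg point stands apart from both.

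The transgenes themselves could not be read from the score. App was listed at 0 in all 12 libraries. Thy1 had 0.015, 0.012 and 0.014 in WT against 0.012, 0.013 and 0.014 in dTg, and the groups overlapped. Snrnp70, the mouse gene whose product the fragment comes from, had 0.044, 0.046 and 0.045 in WT and 0.042, 0.039 and 0.045 in dTg (0.935-fold, adjusted p = 0.286). No gene of the list of 7 transgene-related genes passed (limma; 1 had an unadjusted p under 0.05). The smallest p was that of Mapt, the tau gene (0.007 in each WT library, 0.008, 0.01 and 0.009 in dTg, adjusted p = 0.118). The prion gene Prnp and its neighbour Prnd had adjusted p of 0.443 and 0.246.

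Genes of the splicing machinery were described by 5 lists, read against the 1.41% higher and 0.166% lower over all genes. Of 22 U1 snRNP and U1-associated factors, Nova1 rose and none fell. Nova1, a neuronal regulator of alternative splicing, had 0.012, 0.012 and 0.014 in WT against 0.021, 0.025 and 0.018 in dTg (1.58-fold, adjusted p = 0.0279), and passed in 4 of 6 omissions, without dTg replicate 2 (0.0494) but not without WT replicate 2 (0.11). The U1-associated genes Luc7l2 (0.043, 0.043 and 0.056 against 0.067, 0.077 and 0.06) and Luc7l3 (0.005, 0.005 and 0.006 against 0.007, 0.008 and 0.007) were separated but had adjusted p of 0.0587 and 0.0592. Of the 22 members 5 (22.7%) were separated upwards and none downwards, where all genes had 18.4% and 3.46%, and the list's median change was 0.0908, below that of all genes.

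Of 24 hnRNP genes 4 (16.7%) were separated upwards, where 18.4% of all genes were, and Hnrnpu rose. This nuclear scaffold protein had 0.108, 0.11 and 0.114 in WT against 0.134, 0.143 and 0.137 in dTg (1.24-fold, log2 change 0.31 ± 0.04 SE, adjusted p = 0.0216), and N40K libraries had 0.145, 0.141 and 0.137. It passed in 4 of 6 omissions (0.0816 without WT replicate 1) and missed the threshold after centring (adjusted p = 0.194). None of 20 SR proteins, Tra2 and CLK kinases passed (limma, 6 at an unadjusted p under 0.05, all higher), and 7 (35%) were separated upwards and none downwards, where all genes had 18.4% and 3.46%. The nearest were the SR protein kinase Srpk1 (1.36-fold, adjusted p = 0.0545), Srsf11 (1.33-fold, 0.0594) and Srsf1 (1.34-fold, 0.0623). Of 9 minor-spliceosome genes Snrnp48 fell, as above, while Snrnp35 of the same particle had 0.032, 0.027 and 0.036 against 0.04, 0.048 and 0.043 (adjusted p = 0.0587). The 29 core genes, including the SF3a and SF3b complexes, had no call (limma, 3 at an unadjusted p under 0.05) and a median change of 0.0078. After centring 14 of these 29 were separated downwards and 1 upwards, where all genes had 14.7% and 11.1%.

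Papola, the canonical nuclear poly(A) polymerase, had 0.023, 0.023 and 0.025 against 0.032, 0.036 and 0.031 (1.36-fold, adjusted p = 0.0378), and the polyadenylation factor gene Rbbp6 had 0.069, 0.058 and 0.072 against 0.097, 0.116 and 0.095 (1.53-fold, adjusted p = 0.0378). They were the 2 rises among 19 cleavage and polyadenylation factors, where 1.41% of all genes rose. Of the 19, 3 (15.8%) were separated upwards, where 18.4% of all genes were. Neither Papola nor Rbbp6 passed without dTg replicate 2 (0.117 each) or after centring (0.056 and 0.0531). Of 52 DEAD and DEAH box helicases Ddx6, of the mRNA decay machinery, went from 0.002 in all WT to 0.003 in all dTg libraries, a difference of 1 rounding step. Of the 52, 9 (17.3%) were separated upwards, where 18.4% of all genes were.

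Of 38 genes of synaptic vesicle release 4 rose and none fell, where 1.41% and 0.166% of all genes did, and 8 (21.1%) were separated upwards, where 18.4% of all genes were. Vamp1, a vesicle SNARE, had 0.011, 0.01 and 0.012 in WT against 0.019, 0.022 and 0.018 in dTg (1.66-fold, adjusted p = 0.0248). Snap25, its partner in the plasma membrane, had 0.003 in each WT library against 0.005, 0.006 and 0.005 (1.46-fold, adjusted p = 0.0173). It is also the 1 rise among 14 neuronal identity genes, of which 2 (14.3%) were separated upwards. Vamp1 passed in 3 of 6 omissions, with adjusted p of 0.0693 without dTg replicate 2 and 0.0947 without WT replicate 2. Snap25 passed in 4 of 6, at 0.028 without dTg replicate 2 and 0.0677 without WT replicate 2. The other 2, Rims2 of the active zone and the vesicle protein Synpr, differed by 1 rounding step: Rims2 was 0.001 in all WT and 0.002 in all dTg libraries, and Synpr 0 and 0.001.

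Of 51 potassium channel genes 18 (35.3%) were separated upwards, against 18.4% of all genes, and 1 downwards, with a median change of 0.2767 (0.2224 without dTg replicate 2). The median was 0.2146 in N40K and 0.0005 in 5xFAD mice against the same WT libraries. Only Kcnab1 passed, by 1 rounding step (0.001 in all WT, 0.002 in all dTg libraries). Kcnk3, a background potassium channel, had 0.021, 0.02 and 0.021 in WT against 0.047, 0.097 and 0.045 in dTg (2.7-fold, adjusted p = 0.0516) and passed after centring (0.0392); without dTg replicate 2 its uncentred adjusted p was 0.12. Kcna1, which sets axonal excitability, had 0.058, 0.052 and 0.06 against 0.088, 0.119 and 0.093 (1.73-fold, adjusted p = 0.0568), with dTg replicate 2 highest as in Kcnk3. Kcna4 had 0.032, 0.03 and 0.022 against 0.061, 0.072 and 0.055 (2.17-fold, adjusted p = 0.156). Of 30 sodium, calcium and HCN channel genes 9 (30%) were separated upwards and none downwards. None of the 30 passed (limma, 11 at an unadjusted p under 0.05, all higher). The nearest was Scn2a1, an axonal sodium channel (0.003 in each WT library, 0.004, 0.005 and 0.004 in dTg, adjusted p = 0.0604), and the pacemaker channel gene Hcn4 had 0.026, 0.02 and 0.016 against 0.033, 0.037 and 0.032 (adjusted p = 0.08). The 2 channel lists had median WT scores of 0.008 and 0.0083, against 0.0297 over all genes. Low scores and long introns went with larger rises in general, as given below. Whether they account for the shares in these lists was not tested.

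The next 4 lists are also read against 1.41% of all genes higher. Of their members, 25.6% (glutamatergic), 8.82% (GABAergic), 11.5% (axon guidance) and 26.7% (protocadherins) were separated upwards, where 18.4% of all genes were. Of 43 glutamatergic genes Dlgap1, a scaffold of the postsynaptic density, and the kainate receptor subunit Grik1 rose, from 0.001 and 0.003 in every WT library to 0.002, 0.003 and 0.002 and to 0.004, 0.005 and 0.004 in dTg (adjusted p = 0.0475 and 0.0328). Of 34 GABAergic genes Slc12a2, the chloride importer NKCC1, rose (0.013, 0.011 and 0.013 against 0.018, 0.022 and 0.018, 1.49-fold, adjusted p = 0.0328), and this list's median of 0.0411 lay below that of all genes. Among 52 axon guidance genes the ligand genes Slit3 (0.002 in each WT library, 0.006, 0.008 and 0.006 in dTg, 2.15-fold, adjusted p = 0.0102) and Slit1 (0.004, 0.003 and 0.003 against 0.006, 0.009 and 0.007, 1.74-fold, 0.0408) rose. Slit3 passed without each of the 6 libraries in turn (adjusted p up to 0.0461), and Slit1 in 1 of 6 (0.121 without dTg replicate 2, 0.141 without WT replicate 2). The WT values of Slit3, like those of Dlgap1 and Grik1, did not vary at 3 decimals. Rounding can hide spread at such scores, which leaving out a library does not show. Of 15 protocadherins Pcdh10 rose (0.011, 0.012 and 0.011 against 0.017, 0.019 and 0.018, 1.5-fold, adjusted p = 0.0198), as did Pcdh11x from 0.002 in each WT library to 0.003, 0.004 and 0.003 (0.0279). Pcdh10, Pcdh11x and Grik1 passed in 3 of 6 omissions, Slc12a2 in 2 and Dlgap1 in 0, with the highest adjusted p (0.0773, 0.107, 0.11, 0.11 and 0.148) without WT replicate 1 for Pcdh10 and WT replicate 2 for the others. None of 16 activity-regulated genes passed (limma; unadjusted p was under 0.05 in 1), with Bdnf, a neurotrophin, at 0.003 in each WT library and 0.006, 0.008 and 0.005 in dTg (adjusted p = 0.123).

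Of 30 genes of amyloid-associated microglia and lysosomes 3 fell and none rose, where 0.166% and 1.41% of all genes did, 13 (43.3%) were separated downwards against 3.46% of all genes, and none was separated upwards. The list's median change was −0.2333 (−0.2195 without dTg replicate 2), against 0.1073 over all genes. In the same WT libraries' comparisons it was 0 for N40K and −0.1756 for 5xFAD mice. Cd68 was described above. Ctsz, a lysosomal cysteine protease, had 0.014, 0.012 and 0.011 in WT against 0.007, 0.009 and 0.008 in dTg (0.698-fold, adjusted p = 0.0489), and Grn, the progranulin gene, 0.133, 0.13 and 0.137 against 0.113, 0.112 and 0.117 (0.857-fold, 0.0484). Grn was also the 1 call among 37 Alzheimer disease risk and amyloid-processing genes. In M21 Ctsz overlaps Nelfcd and Grn overlaps Fam171a2, each on the opposite strand. Without dTg replicate 2 none of the 3 passed (adjusted p = 0.0676 for Cd68, 0.0907 for Ctsz, 0.149 for Grn), and without WT replicate 2 Ctsz had 0.143; Ctsz and Grn passed in 0 of 6 omissions and Cd68 in 3. After centring Cd68, Ctsz, Hexa and Man2b1 passed. Hexa, a lysosomal hexosaminidase subunit, had 0.013, 0.012 and 0.014 against 0.007, 0.008 and 0.008 (0.645-fold, uncentred adjusted p = 0.0592), and Ctsa, a lysosomal carboxypeptidase, 0.102, 0.106 and 0.107 against 0.089, 0.09 and 0.086 (0.0574).

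Of 15 homeostatic microglia genes Cd180 fell and none rose, 4 (26.7%) were separated downwards, where 3.46% of all genes were, and none upwards, with a median of −0.0688. Cd14, the lipopolysaccharide co-receptor, had 3.85, 4.08 and 4.8 against 2.74, 2.05 and 2.6 (0.579-fold, adjusted p = 0.0954). Of 27 interferon-response genes Usp18 fell, where 0.166% of all genes did, 7 (25.9%) were separated downwards and 1, Mx1, upwards. Isg15, the modifier that Usp18 removes, had 0.164, 0.138 and 0.205 against 0.067, 0.084 and 0.094 (0.491-fold, adjusted p = 0.119). None of 17 complement and class I genes passed (limma; unadjusted p was under 0.05 in 4, all lower). The nearest was C4a (0.277, 0.285 and 0.289 against 0.249, 0.203 and 0.235, adjusted p = 0.0768), which has a near-identical copy in C4b and is uncertain for that reason. In bulk cortex a change in the number of microglia and a change per cell cannot be told apart, and expression, which would show cell numbers, was not analysed here. Their part in these scores was not tested.

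**Figure D4:**
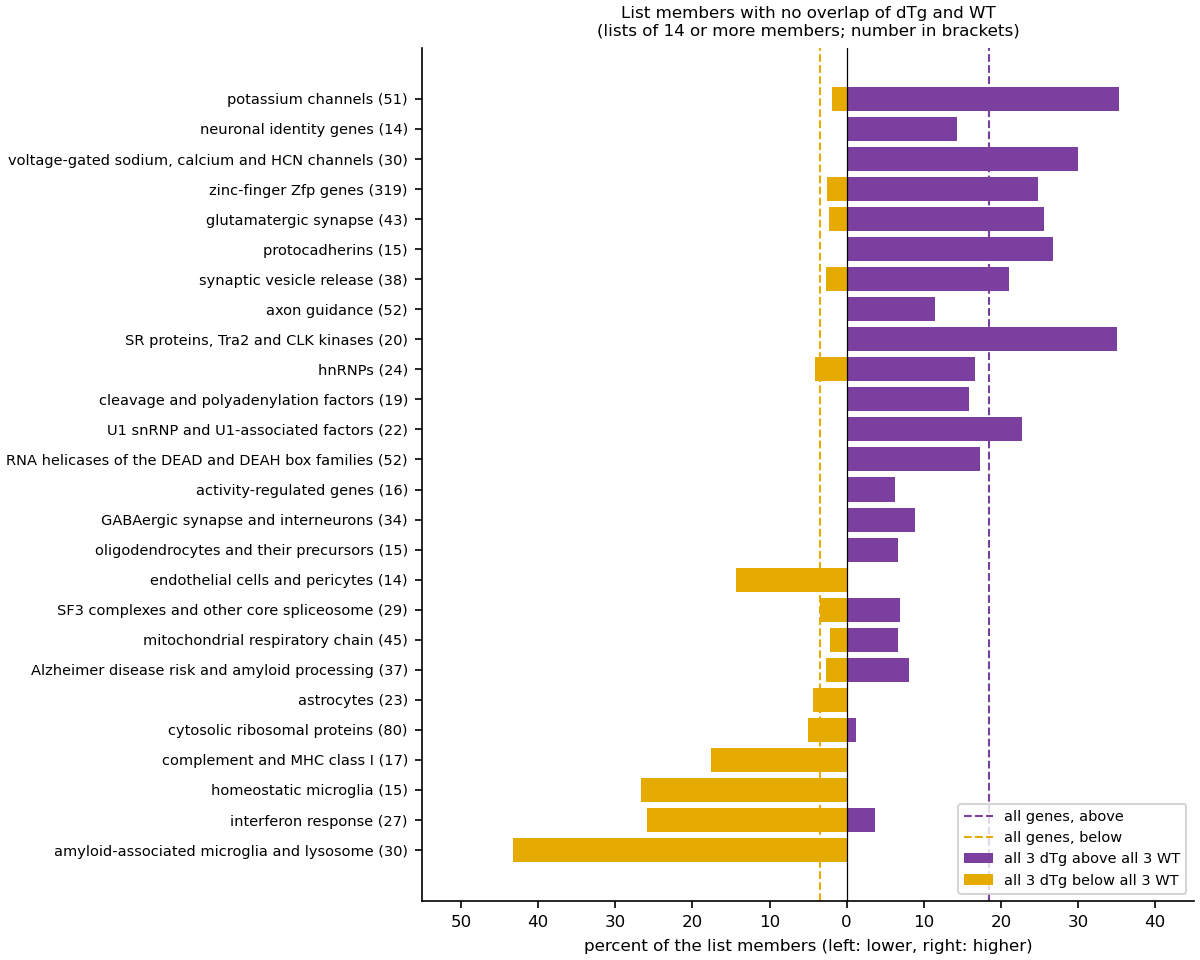
Share of each list's members whose 3 dTg libraries lay all above (right, purple) or all below (left, yellow) the 3 WT libraries, for lists of 14 or more measured genes, ordered by median change; dashed lines give the shares over all genes (18.4% and 3.46%). Potassium channels reach 35.3% on the right and amyloid-associated microglia and lysosome genes 43.3% on the left.

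Lists for other cell types of the cortex had no call in the uncentred scores. Of 23 astrocyte genes none passed (limma, 1 higher and 2 lower at an unadjusted p under 0.05). Gfap, the astrocyte filament protein, had 0.014, 0.017 and 0.02 in WT against 0.01, 0.011 and 0.013 in dTg (0.705-fold, adjusted p = 0.0595) and passed after centring (0.0374). Of 14 endothelial and pericyte genes Tek, the angiopoietin receptor, passed after centring only, and uncentred 1 had an unadjusted p under 0.05 (limma; 0.013, 0.014 and 0.014 against 0.01, 0.01 and 0.011, uncentred adjusted p = 0.0668, centred 0.0451). None of 15 oligodendrocyte genes passed on either scale (limma; 1 higher and 1 lower at an unadjusted p under 0.05).

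The housekeeping lists had medians at or below 0. None of 80 cytosolic ribosomal protein genes passed (limma; unadjusted p was under 0.05 in 2 lower), with a median change of −0.0231, where all genes had 0.1073. Uncentred, 1 of the 80 was separated upwards and 4 (5%) downwards, where all genes had 18.4% and 3.46%. After centring none was separated upwards and 36 downwards, where all genes had 11.1% and 14.7%. None of 45 respiratory chain genes passed either (limma, 5 higher and 1 lower at an unadjusted p under 0.05). Their median was 0. Uncentred 3 of the 45 were separated upwards and 1 downwards, and after centring 3 upwards and 12 downwards.

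Families of the leading genes were small, apart from the Zfp genes. Of 4 lysyl oxidases Loxl4 rose, and Loxl2 had 0.241, 0.326 and 0.32 in WT against 0.346, 0.502 and 0.473 in dTg (1.48-fold, adjusted p = 0.129), while Loxl1 and Loxl3 overlapped between groups. Of 4 Lrrc8 channel subunits Lrrc8c passed after centring only, and the obligate subunit Lrrc8a had 0.12, 0.124 and 0.126 against 0.129, 0.14 and 0.143 (1.11-fold, adjusted p = 0.107). Of 8 genes of NAD synthesis Nmnat1 alone passed and the other 7 overlapped between groups, including its cytosolic relative Nmnat2 (0.001 in each WT library, 0.001, 0.002 and 0.001 in dTg). Of 319 zinc-finger Zfp genes 8 rose and 2 fell, 79 (24.8%) were separated upwards and 8 (2.51%) downwards, with a median of 0.1829. Over all genes 1.41% rose and 0.166% fell, 18.4% and 3.46% were separated, and the median was 0.1073. Zfp704 had 0.002 in each WT library and 0.004, 0.006 and 0.004 in dTg (1.65-fold, adjusted p = 0.0198). Zfp266 had 0.085, 0.088 and 0.093 against 0.129, 0.148 and 0.108 (1.43-fold, adjusted p = 0.0408). Zfp704 passed in 3 of 6 omissions (0.0735 without WT replicate 1) and Zfp266 in 1 (0.13 without WT replicate 2). After centring 1 Zfp gene was called higher and 1 lower.

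Across the whole table the change depended on where a gene stood. Genes were put in 5 equal groups by their mean WT score, and the median change fell from 0.164 in the lowest group to 0.0113 in the highest. The share of genes called higher fell from 2.61% to 0.541% over the same groups, and the share called lower was 0.0318% in the lowest and 0.35% in the highest group. The WT score enters both sides of this relation, so chance error in the WT libraries adds to it. Intron length does not use the score. It was summed per gene from GENCODE M21, which is on another build than the scores and matched 14911 genes (94.9%) by Ensembl identifier. The median change was 0.0127 in the group with the least intron sequence and 0.1662 in the group with the most, and the share called higher went from 0.337% to 2.87%. Without dTg replicate 2 the 2 ends were 0.0148 and 0.1205. Genes that rose had a median of 57.2 kb of introns and genes that fell 12.9 kb, against 20.7 kb over all genes. The same end groups had medians of 0.0176 and 0.1376 in N40K and 0 and 0 in 5xFAD mice. The long-intron group also had the lower WT scores (median 0.006 against 0.11 in the short-intron group), and the 2 properties were not separated here. Among matched genes, 71.0% of the rises and 73.1% of the falls overlapped another gene in M21, against 59.2% of all matched genes. Vamp1 (Cd27, Tapbpl), Hnrnpu (Cox20) and Phospho1 (Abi3, Zfp652) are further examples. Whether signal from an overlapping gene entered these scores was not tested.

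**Figure D5:**
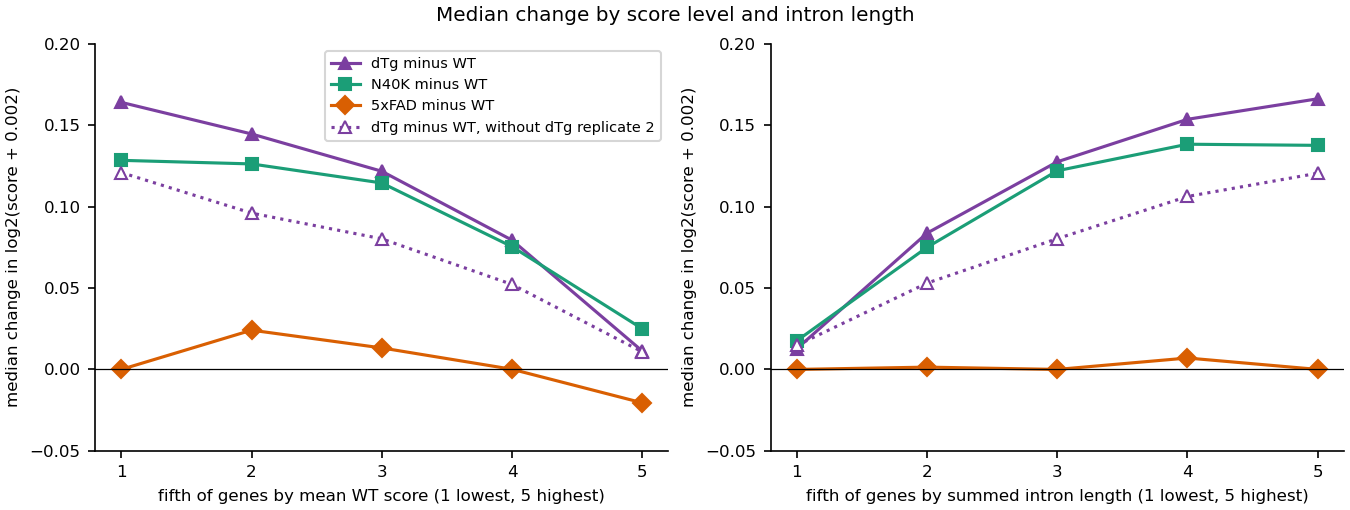
Median change from WT on the log2(score + 0.002) scale in 5 equal groups of genes by mean WT score (left) and by summed intron length (right), for dTg (filled triangles), dTg without replicate 2 (open triangles), N40K (squares) and 5xFAD mice (diamonds). By intron length the dTg medians climb from 0.0127 to 0.1662, and those of 5xFAD mice stay between 0 and 0.007.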

How the data were processed

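Cortex RNA was poly(A)-selected and sequenced as stranded 100-base paired-end reads after a DNase step, per the labels' protocols. The submitters' processing notes name CASAVA, STAR, BWA, bedtools 2.16.1 and the mm9 build. The authors deposited the Sd score of each gene and library as a linear ratio with 3 decimals; its formula, the read counting and its use of strand, the annotation and the depth are not given in the sources used here. No positions are given, since GENCODE M21 is on a later build.

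Scores were analysed as log2(score + 0.002), where 0.002 is the 5th percentile of scores above 0. All 12 libraries of 6 months entered 1 limma fit (version 3.58.1, R 4.3.3; lmFit, contrasts.fit, eBayes; 8 residual and 1.2 prior degrees of freedom, 2.55 prior after centring), without and with centring each library on its median. The call was a Benjamini-Hochberg adjusted p under 0.05 (two-sided) over 15705 genes. No 2 libraries were identical. The pipeline was tested on simulated data. Library medians were compared by exact permutation. Named genes were the 15 largest rises and falls among called genes whose groups did not overlap and whose larger mean was at least 0.02, up to 4 called members of each list or the member with the smallest p, all transgene-related genes, and the 5 largest centred rises and falls; predicted genes were counted only, and a few other genes under this rule are not reported here. Other genes were named after their values were seen: the separated list members next to the threshold, the other members of the small families, and Atp2b2, Prex1 and Cst3. Members, lists and this rule were chosen with earlier results of these data known. Alternatives were other pseudocounts, filters, a variance trend, the 6 libraries alone, a replicate block and leaving out each library; leaving out both libraries of highest median was added after seeing the data. The 12-month tau libraries were not used here.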

Additional observations from a re-analysis of the deposited data

Results flagged for a closer look

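In 3 genes the effect of N40K differed between mice with and without 5xFAD transgenes by the interaction test (limma, adjusted p under 0.05), and in each the difference was 1 step of the last decimal. Synpr, a synaptic vesicle protein, was listed at 0 in all WT, N40K and 5xFAD libraries and at 0.001 in all dTg libraries (interaction 0.585 on the log2 scale). Kcnab1, a potassium channel beta subunit, and Atp2b2, a plasma membrane calcium pump, were 0.001 in every WT library and 0.002 in each of the others (interaction −0.415 each). None of the 3 varied within a group, so the spread behind the test came from other genes and from rounding. With a mean score of at least 0.02 required, the interaction called 0 genes (limma, 286 at an unadjusted p under 0.05).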

How the results depend on the processing

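The count of 247 genes for dTg minus WT was 49 with a mean score of at least 0.02, 157 with a pseudocount of 0.01, 156 with the 6 libraries alone (39 of them among the 247), 163 after centring and 31 with the replicate block, and ranged from 30 to 223 with 1 library left out. The centred count of 163 was 88, 74, 0 and 1 under the same filter, pseudocount, 6 libraries and block, 277 with genes differing by at most 0.001 left out of the adjustment, 40 without both libraries of highest median, and 0 to 157 with 1 library left out. For dTg minus 5xFAD the 49 became 0 with the filter, with a pseudocount of 0.01 and after centring, 15 with the block, 170 without both libraries of highest median and 18 to 80 with 1 left out. For dTg minus N40K the 3 became 0, 0 and 0 under those settings, 1 with the block, 34 without both and 4 to 22 with 1 left out. For the interaction the 3 became 0, 0 and 0, 0 with the block, 5 with a variance trend, 22 without both and 1 to 14 with 1 left out. The cause of these changes was not tested. Deviations of same-numbered WT and dTg libraries had correlations of −0.027, −0.027 and −0.001. For WT and N40K they were 0.061, 0.071 and 0.015, and for N40K and dTg −0.2, −0.059 and −0.009. With 3 libraries a group such correlations cannot decide whether the numbers pair the samples. The library medians differed by 0.1014 to 0.2126 with 1 library left out. The exact permutation p was then 0.1 to 0.3, where 10 regroupings cannot give less than 0.1. Of 54 named genes past the threshold, 36 passed after centring, 35 without both libraries of highest median, 18 without dTg replicate 2 and 11 without WT replicate 1. Thy1 ranged from −0.139 to 0.0011 with 1 library left out (0.0011 without WT replicate 1); it passed under no setting.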

Other observations

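There were 3 genes that passed in dTg minus N40K, and all were 1-step differences. Synpr is described above. Prex1, an exchange factor for Rac, was 0.003 in all dTg and 0.002 in all other libraries. Cst3, the secreted protease inhibitor cystatin C, was 0.002 in all dTg and 5xFAD and 0.003 in all N40K and WT libraries. Cst3 is made in quantity by microglia and astrocytes and is the 1 gene of the 3 whose dTg and 5xFAD values were equal.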
